A study of Homo sapiens with 9 samples.

Results

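The contacts described here are those of the IRS1 promoter, 1 of 20 promoters captured in HCT-116 MED14-dTAG cells. All 9 libraries of the IRS1 capture were used, and the region analyzed holds the DpnII fragments within 500 kb of the IRS1 transcription start site, which number 2272 of the 524315 fragments listed for this promoter. HCT-116 is a human colorectal carcinoma cell line, and in the MED14-dTAG derivative the Mediator subunit MED14 carries a tag through which a dTAG ligand directs it to degradation. The 3 groups, with 3 replicates each, were cells given DMSO, cells given 0.5 μM dTAG ligand for 2 h (dTAG), and cells given the same ligand together with 1 μM of the BET inhibitor I-BET 151 for 90 min (dTAG+I-BET). All groups, the DMSO controls included, carry the tagged MED14, no group received I-BET alone, and MED14 protein was not measured in these libraries. Capture-C reads out contacts of chosen promoters and no transcripts, so that the cell type could not be checked against marker genes.

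IRS1 encodes insulin receptor substrate 1, an adaptor protein that is phosphorylated by the insulin and IGF1 receptors and passes their signal to the PI3K pathway. Mediator is a large complex that bridges enhancer-bound transcription factors and RNA polymerase II, and BET proteins read acetylated chromatin at active enhancers and promoters. Cohesin, which contains SMC1A, forms chromatin loops by extrusion and is also found at active enhancers. The comparisons below ask whether loss of Mediator, alone or with BET inhibition, changed where the IRS1 promoter made contacts, and whether places from which SMC1A was lost stood apart. Those places, called cohesin-lost sites, are the positions that the study lists as having less SMC1A CUT&Tag signal after MED14 depletion. They come from another assay of the same study and only their coordinates were used.

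IRS1 (ENSG00000169047.6) lies on the minus strand at chr2:226731312-226799820 (hg38), with a 5′ exon at chr2:226794989-226799820 that holds the coding sequence and a 3′ exon at chr2:226731312-226736250. The captured fragment and its excluded surroundings left a gap of 1837 bp around the start site with no listed fragment. The downstream side, toward lower coordinates, is gene-poor: beyond the IRS1 gene itself, GENCODE places only the microRNA gene MIR5702 there within 500 kb, at 141.0 kb. On the upstream side lie RHBDD1, which encodes a rhomboid protease, and the divergent collagen genes COL4A4 and COL4A3, which encode chains of basement membrane collagen. Within 500 kb there were 10 cohesin-lost sites. Of these, 9 were downstream, at 39.3, 137.8, 147.3, 187.7, 218.5, 321.3, 351.9, 372.0 and 471.8 kb from the start site. The first of them lies in the IRS1 intron and the other 8 lie in no annotated gene. The single upstream site, at 182.3 kb, lies in the body of RHBDD1 and, in RefSeq alone, also in that of COL4A4.

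The sequences of 4 places are shown: the pair of sites in the called window, the next site beyond them, and the captured promoter. The first 3 are the central 300 bases of the cohesin-lost sites at 137.8, 147.3 and 187.7 kb downstream (hg38 reference, plus strand), with capitals marking matches to the AP-1 motif TGANTCA, whose reverse complement reads the same. AP-1 is the dimer of FOS and JUN family proteins that binds many enhancers of growth-stimulated epithelial cells. The fourth is the 250 bases before the IRS1 start site (RefSeq, GRCh38.p14, chr2:226799821-226800070, minus strand), with capitals marking GC boxes, GGGCGG, which were searched on both strands.
Site at 137.8 kb, chr2:226661877-226662176: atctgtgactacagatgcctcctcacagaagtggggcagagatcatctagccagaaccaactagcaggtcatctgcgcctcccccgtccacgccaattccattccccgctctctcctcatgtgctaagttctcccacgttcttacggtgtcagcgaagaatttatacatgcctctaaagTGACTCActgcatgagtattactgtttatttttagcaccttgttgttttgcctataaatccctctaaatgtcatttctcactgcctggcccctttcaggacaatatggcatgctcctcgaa
Site at 147.3 kb, chr2:226652391-226652690: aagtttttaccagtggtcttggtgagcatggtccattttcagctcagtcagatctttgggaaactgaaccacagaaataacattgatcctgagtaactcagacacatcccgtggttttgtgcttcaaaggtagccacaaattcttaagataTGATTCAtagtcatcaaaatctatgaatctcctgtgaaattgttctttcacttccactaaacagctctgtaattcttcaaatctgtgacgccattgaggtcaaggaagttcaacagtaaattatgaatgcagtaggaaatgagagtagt
Site at 187.7 kb, chr2:226611953-226612252: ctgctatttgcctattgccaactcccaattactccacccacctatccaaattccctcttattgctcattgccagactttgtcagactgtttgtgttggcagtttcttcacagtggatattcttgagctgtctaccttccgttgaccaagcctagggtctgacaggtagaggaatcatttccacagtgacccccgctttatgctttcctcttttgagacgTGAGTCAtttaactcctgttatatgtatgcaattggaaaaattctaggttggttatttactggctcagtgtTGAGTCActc
IRS1 promoter: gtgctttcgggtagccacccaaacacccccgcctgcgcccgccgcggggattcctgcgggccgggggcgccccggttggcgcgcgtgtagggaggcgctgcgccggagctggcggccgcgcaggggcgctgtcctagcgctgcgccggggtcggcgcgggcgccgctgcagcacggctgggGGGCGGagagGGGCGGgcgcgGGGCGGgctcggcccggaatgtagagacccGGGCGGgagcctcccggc

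Of the 10 IRS1 sites, 5 held a TGANTCA match in their central 300 bases (6 matches in all), against 512 of all 881 cohesin-lost sites (58.1%). These were the 3 sites printed above and those at 321.3 and 351.9 kb. The upstream site in RHBDD1 held the only TCF/LEF match (ATCAAAG, both strands), a motif present at 7.04% of all cohesin-lost sites. The IRS1 promoter window was 80.8% G or C and contained 4 GC boxes. A GC box was found in 42.6% of 35116 promoters of the same length. These matches describe letters in the reference sequence and do not show binding.

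The normalised signal of a DpnII fragment counts its interactions with the promoter after scaling of each library. The scaled total on the promoter's own chromosome was nearly constant, at 950948 to 959413 for IRS1. Signal is given below per kb of sequence. IRS1 was among the more deeply sampled captures, with 32259 to 60189 interactions on its own chromosome per library (median 38655) and 10469 to 26177 from 10 to 500 kb of the start site. Interactions with other chromosomes made up 21.9% to 26.1% in 8 libraries and 31.6% in dTAG replicate 3. That library was also lower close to the promoter: from 10 to 50 kb downstream it held 943 per kb, against 1655 and 1516 in dTAG replicates 1 and 2. Values without it are given beside most of the dTAG estimates that it moved by over 1.5 times. The study states that the replicates were biologically independent. Over the pooled bins of all 20 promoters, replicates of a group differed by more than sampling noise, with a chi-square of 1.36 to 4.24 per degree of freedom. That value also takes in differences between libraries in the yield of each promoter. Over the IRS1 bins alone the chi-square was 1.14 to 3.25 per degree of freedom. The lowest was that of dTAG+I-BET replicates 2 and 3, which were within sampling noise there. No libraries were merged, and this spread does not tell biological from technical replicates.

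In DMSO, the IRS1 promoter contacted its gene-poor downstream side more than its upstream side. The downstream side held 67.0% ± 1.2 (SD, n = 3) of the signal from 10 to 500 kb, which was the third highest share of the 20 promoters. Set against the median of the other 19 promoters at the same distance and side, all 15 bins of 10 kb from 100 to 250 kb downstream were higher at IRS1, by a median of 1.31 on the log2 scale. So were all 25 bins from 250 to 500 kb, by a median of 1.17. Upstream, 0 of 5 bins from 50 to 100 kb and 3 of 25 bins from 250 to 500 kb were higher than the others' median. These levels describe the locus and were not tested.

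The downstream bins that stood highest over the other promoters each lay at cohesin-lost sites or next to one, as did 24 of all 49 downstream bins (49.0%). The bin at 370 to 380 kb (chr2:226419820-226429819), with the site at 372.0 kb, held 573 per kb in DMSO against a median of 131 at the other promoters. Its neighbor at 380 to 390 kb held 452 per kb against 126. The bin at 130 to 140 kb (chr2:226659820-226669819), with the site at 137.8 kb, held 1097 per kb against 311, and was the highest of the 20 promoters at that distance. Upstream, the 3 bins from 170 to 200 kb formed the peak around the site in RHBDD1. Their DMSO levels were 527, 743 and 674 per kb, against medians of 414, 400 and 391 at the other promoters.

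**Figure D1:**
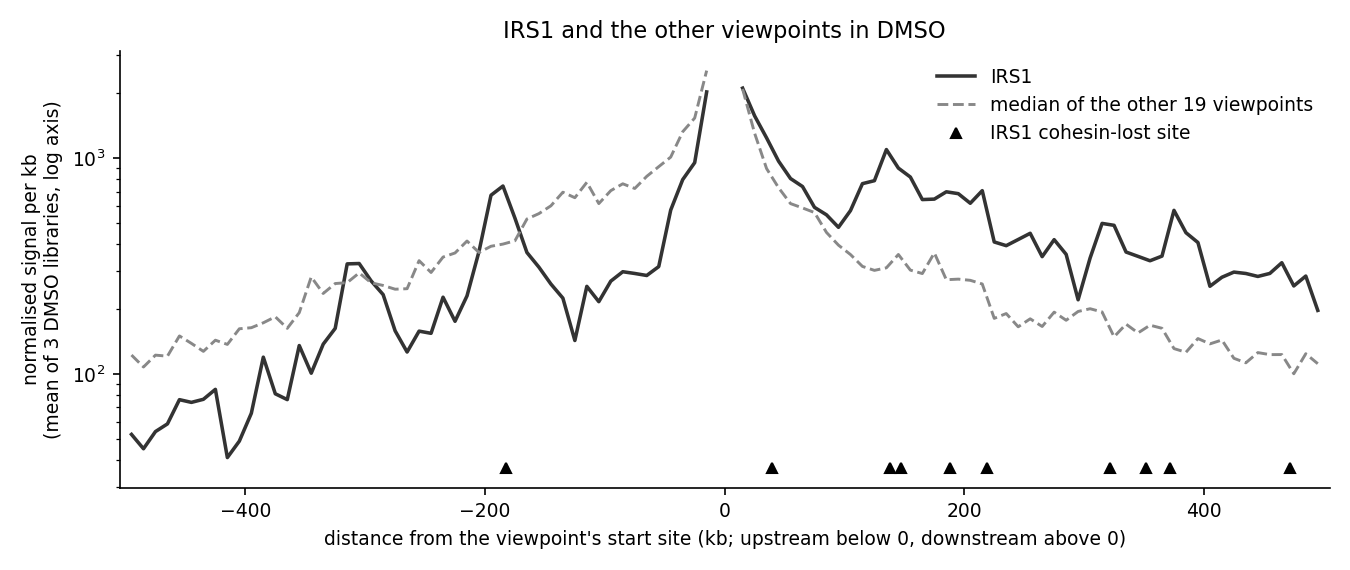
Normalised signal per kb in DMSO (y axis, log scale, mean of 3 libraries) in 10-kb bins by distance from the start site (x axis, kb) for IRS1 and for the median of the other 19 promoters, with IRS1 cohesin-lost sites as triangles. IRS1 lies above the others' median at each of the 40 downstream bins beyond 100 kb, and mostly below it upstream outside the peak at 170 to 200 kb.

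Contacts of the IRS1 promoter with the pair of cohesin-lost sites that flank MIR5702 were lower after Mediator depletion, with or without I-BET. Their windows (5 kb added on each side) overlap and were joined into one of 19.9 kb (chr2:226647340-226667226), 132.6 to 152.5 kb downstream. The 3 DMSO libraries held 966, 900 and 978 per kb in this window, the 3 dTAG libraries 715, 680 and 531, and the 3 dTAG+I-BET libraries 606, 645 and 594. All 6 libraries with dTAG ligand were below all 3 DMSO libraries. The means were 948 ± 42 for DMSO, 642 ± 98 for dTAG and 615 ± 27 for dTAG+I-BET (SD, n = 3), so that dTAG stood at 67.7% and dTAG+I-BET at 64.9% of the DMSO mean. With limma, signal fell by 0.57 on the log2 scale in dTAG (SE 0.14, adjusted p = 0.0194) and by 0.62 in dTAG+I-BET (adjusted p = 0.00948). Between dTAG and dTAG+I-BET the difference was -0.05 (SE 0.14, adjusted p = 0.917), and -0.18 without dTAG replicate 3 (adjusted p = 0.431 with limma). The adjustment runs over 113 windows of all promoters with such sites, of which 8.85% were called in dTAG against DMSO (adjusted p under 0.05) and 14.2% in dTAG+I-BET against DMSO. At IRS1 it was 1 of 9 windows in each comparison, a share close to that background. Both calls were lower, as were 8.85% and 10.6% of all windows. The treated libraries lay below all DMSO libraries in 3 of the 9 windows in each comparison, against 23% and 31.9% of all windows.

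This decrease was spread over most fragments of the window. The window contains 50 DpnII fragments with a median length of 197 bp and held 358 to 1127 interactions per library. Mean signal was lower than in DMSO for 48 of the 50 fragments in dTAG and for 48 in dTAG+I-BET. All 3 libraries were below all 3 DMSO libraries for 16 fragments in dTAG and for 23 in dTAG+I-BET. These fragments make up a window already called lower, so that a majority of lower fragments adds no separate support. In the uncalled windows, mean signal was lower in dTAG for between 5 of 21 fragments (at 471.8 kb) and 17 of 20 (at 187.7 kb). All 3 treated libraries lay below DMSO there for 0 to 5 fragments per window in either comparison. The longer fragment of the site at 147.3 kb (chr2:226652479-226653140), in which the TGANTCA match lies, went from a mean signal of 644 ± 91 in DMSO to 397 ± 191 in dTAG and 433 ± 10 in dTAG+I-BET (SD, n = 3). The fragment with the match of the site at 137.8 kb (chr2:226661921-226662371) was at 555 ± 133, 457 ± 179 and 382 ± 104. Single fragments were not tested.

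The call in this window held without dTAG replicate 3, at -0.44 (adjusted p = 0.0147), but not without every library. In dTAG against DMSO it was -0.56 without DMSO replicate 1 (adjusted p = 0.104), and with only these 2 groups in the fit the adjusted p was 0.0629. In dTAG+I-BET against DMSO it was -0.61 without dTAG+I-BET replicate 1 (adjusted p = 0.0559).

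The other 8 windows did not pass the test in either comparison with DMSO. Next to the MIR5702 pair, the window of the site at 187.7 kb held 639 to 725 per kb in DMSO, 470 to 604 in dTAG and 535 to 585 in dTAG+I-BET. The DMSO libraries did not overlap with the others there, with limma estimates of -0.36 (adjusted p = 0.103) and -0.29 (adjusted p = 0.159). The window at 218.5 kb held 567 to 637 per kb in DMSO and 420 to 513 in dTAG+I-BET, which did not overlap, and 394 to 579 in dTAG, which did. Its estimates were -0.28 and -0.38 (adjusted p = 0.318 and 0.114 with limma), the former -0.11 without dTAG replicate 3. The window in the IRS1 intron, at 39.3 kb, had group means of 996 ± 93, 871 ± 191 and 901 ± 81 per kb (SD, n = 3), and its groups overlapped.

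Farther downstream the windows lay at or around their DMSO level. At 321.3 kb the estimates were -0.15 (-0.03 without dTAG replicate 3) and -0.16 for dTAG and dTAG+I-BET against DMSO. At 351.9 kb they were 0.25 and 0.29, with DMSO libraries at 228 to 321 per kb and dTAG+I-BET libraries at 286 to 361. At 372.0 kb, where IRS1 stood farthest above other promoters, they were 0.09 (0.14 without dTAG replicate 3) and -0.03, and at 471.8 kb they were 0.22 and -0.02. None of these 4 windows passed the test in limma, the lowest adjusted p being 0.207. A further 6 cohesin-lost sites, 592.0 to 735.9 kb downstream, gave 5 windows with estimates of -0.16 to 0.23 in dTAG and -0.23 to 0.16 in dTAG+I-BET, none of them called. Upstream, the RHBDD1 window held 749, 622 and 775 per kb in DMSO, 598, 540 and 539 in dTAG, and 636, 680 and 708 in dTAG+I-BET. Its dTAG libraries were below all others, at -0.35 against DMSO (adjusted p = 0.105 with limma) and with a dTAG+I-BET to dTAG difference of 0.27 (adjusted p = 0.787).

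**Figure D2:**
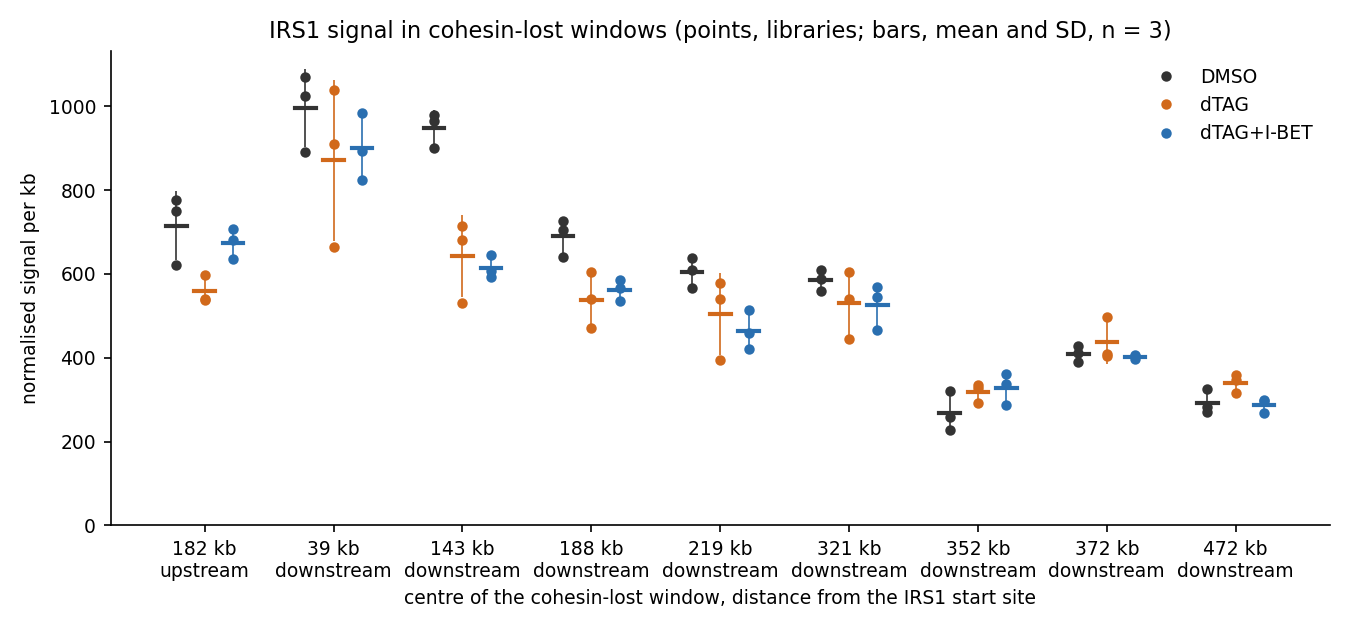
Normalised signal per kb (y axis) in the 9 windows of cohesin-lost sites around IRS1 (x axis, ordered by position from the upstream site to the farthest downstream site), with points for libraries and bars for the mean ± SD of 3 libraries per group. In the joined window centered at 143 kb the DMSO libraries sit at 900 to 978 and the 6 others at 531 to 715.

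Over all 9 windows together, signal per kb was 652, 644 and 633 in DMSO, 596, 554 and 462 in dTAG, and 531, 530 and 549 in dTAG+I-BET. DMSO was above all 6 other libraries, and both treated means were near 83.5% of DMSO. The share of promoters whose sums lay apart by group was not counted. The limma estimates were -0.27 (adjusted p = 0.128) and -0.26 (adjusted p = 0.0964) and did not pass the test, and the former was -0.16 without dTAG replicate 3 and from -0.35 to -0.26 without any 1 other library, not called in any of these. Over the 19 promoters with such sites, 0 and 5.26% of sums were called. Both passed after libraries were rescaled to equal totals from 10 to 1000 kb, at -0.21 (adjusted p = 0.00235) and -0.27 (adjusted p = 0.000266).

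A ratio taken within each library does not depend on the scaling between libraries. The log2 ratio of signal per kb in cohesin-lost windows over that in all other sequence from 10 to 500 kb was 0.66, 0.69 and 0.70 in DMSO. It was 0.54, 0.45 and 0.64 in dTAG, and 0.42, 0.43 and 0.44 in dTAG+I-BET. The 3 groups did not overlap and stood in the order DMSO, dTAG, dTAG+I-BET. How many of the 19 promoters had groups that lay apart in this ratio was not counted. The nearest libraries of the last 2 groups were at 0.455 and 0.443. These directions were common: of the 19 promoters, 78.9% were below DMSO in each comparison, and 84.2% were lower in dTAG+I-BET than in dTAG. Against DMSO, the ratio fell by 0.25 in dTAG+I-BET (SE 0.05, adjusted p = 0.00281 with limma), with 63.2% of 19 promoters called and 57.9% called lower. With mirror-image windows on the opposite side of the promoter in place of the other sequence, it fell by 0.26 in dTAG+I-BET (adjusted p = 0.012 with limma). In that version dTAG was at -0.11 (adjusted p = 0.217 with limma) and overlapped with DMSO, and no fit was run without dTAG replicate 3. For the ratio to other sequence, the difference in dTAG against DMSO was -0.14 (adjusted p = 0.0874, 21.1% called). Without dTAG replicate 3 it was -0.19 (adjusted p = 0.0104). Between dTAG and dTAG+I-BET it was -0.11 (adjusted p = 0.175), and -0.065 without that library. IRS1 was not extreme among the 19 promoters, ranking 7th from the lowest in both comparisons with DMSO.

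**Figure D3:**
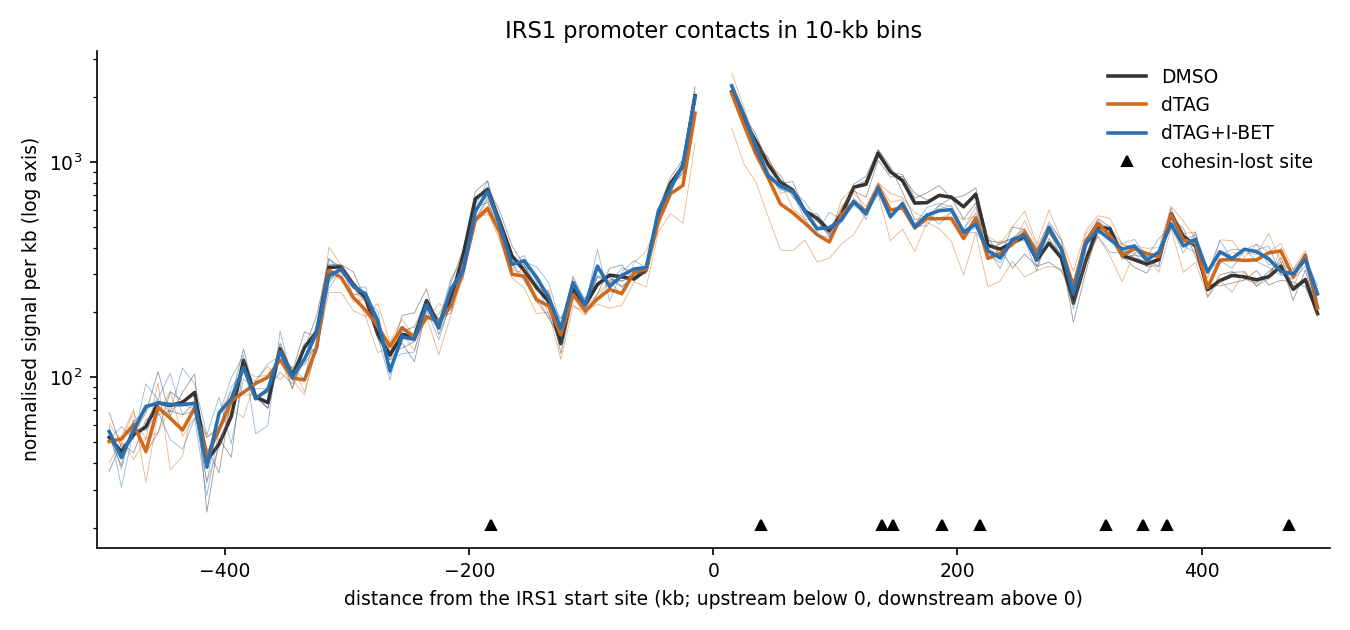
Normalised signal per kb (y axis, log scale) of the IRS1 promoter in 10-kb bins by distance from the start site (x axis, kb), with thin lines for the 9 libraries, thick lines for group means, and triangles for cohesin-lost sites. From 120 to 160 kb downstream the DMSO mean lies above both treated means, and from 400 to 460 kb below them.

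Across the 98 bins of 10 kb, the called bins lay at the MIR5702 pair. In dTAG+I-BET against DMSO, 2 of 98 bins were called (4.9% of 1960 bins of all promoters), and both were the bins of this pair. These 2 bins overlap the called window and share much of its sequence, so that they add no separate support. Both were lower than in DMSO, as were 1.43% of all bins, while 0 IRS1 bins and 3.47% of all bins were called higher. The bin at 140 to 150 kb (chr2:226649820-226659819) held 896, 851 and 953 per kb in DMSO and 542, 558 and 570 in dTAG+I-BET, a log2 difference of -0.69 (SE 0.17, adjusted p = 0.0262 with limma). The bin at 130 to 140 kb held 1139, 1017 and 1134 per kb in DMSO and 752, 794 and 709 in dTAG+I-BET, a difference of -0.54 (SE 0.15, adjusted p = 0.0336 with limma). Neither call held when any 1 DMSO or dTAG+I-BET library was left out, although the estimates stayed at -0.73 to -0.65 and at -0.60 to -0.50.

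In dTAG against DMSO, 0 of 98 bins were called with limma (1.48% of all bins, 0.357% lower and 1.12% higher), while 13 had an unadjusted p under 0.05 (13.3% of all bins) and edgeR called 1. Of the calls over all promoters, 7 of 29 were lower in dTAG and 28 of 96 in dTAG+I-BET, against 39 of 84 and 67 of 136 after libraries were rescaled to equal totals from 10 to 1000 kb. The 2 bins of the pair had the lowest p-values, at -0.62 for 140 to 150 kb (adjusted p = 0.0788) and -0.51 for 130 to 140 kb (adjusted p = 0.0797). They held 714, 649 and 430 per kb, and 799, 801 and 707 per kb, in the dTAG libraries. The other 3 of the 5 bins with the lowest p, listed by that rule and not called, lay at 120 to 130, 150 to 160 and 200 to 210 kb downstream, with log2 differences of -0.42, -0.43 and -0.53. In dTAG+I-BET the corresponding next bins lay at 120 to 130, 210 to 220 and 430 to 440 kb, with differences of -0.45, -0.46 and 0.43. Without dTAG replicate 3, 1 bin was called in dTAG against DMSO, the one at 130 to 140 kb, at -0.45 (adjusted p = 0.0228 with limma). Without dTAG replicate 1 it was the one at 140 to 150 kb, at -0.77 (adjusted p = 0.0423 with limma), which stood at -0.40 without dTAG replicate 3 (adjusted p = 0.0646 with limma) and had an adjusted p of up to 0.249 without a DMSO library. The bins at 150 to 160 and 200 to 210 kb were at -0.27 each without dTAG replicate 3.

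Most bin estimates beyond 250 kb downstream lay above 0, those nearer below it. From 100 to 250 kb downstream, 15 of 15 bins were below DMSO in dTAG and 14 of 15 in dTAG+I-BET, with medians of -0.36 and -0.24. In dTAG it was 12 of 15 without dTAG replicate 3, with a median of -0.22. From 250 to 500 kb downstream, 21 of 25 bins were above DMSO in dTAG and 20 of 25 in dTAG+I-BET, with medians of 0.16 and 0.15. In dTAG it was 25 of 25 without dTAG replicate 3, with a median of 0.21. At all distances and on both sides, 60.2% of the 1960 bins of all promoters were below DMSO in dTAG and 47.8% in dTAG+I-BET. Over the 98 bins of IRS1 it was 64.3% and 53.1%. Bins of 1 promoter come from the same libraries, so that a run of bins with the same sign is not a set of separate observations. Groups did not overlap for 8 and 9 of the 15 nearer bins, all lower in the treated cells. Beyond 250 kb they did not overlap for 4 bins that were higher in dTAG, and for 10 higher and 1 lower in dTAG+I-BET. Over the bins of all promoters, 10.1% lay apart as lower and 6.28% as higher in dTAG, and 11.2% and 15.1% in dTAG+I-BET. Over the 98 bins of IRS1 the shares were 15.3% and 8.16% in dTAG, and 11.2% and 14.3% in dTAG+I-BET. Over all 98 bins the medians of -0.09 and -0.02 lay near those of all promoters, -0.07 and 0.01. Without dTAG replicate 3 the IRS1 median in dTAG was -0.023, with 53 of the 98 bins below DMSO instead of 63.

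**Figure D4:**
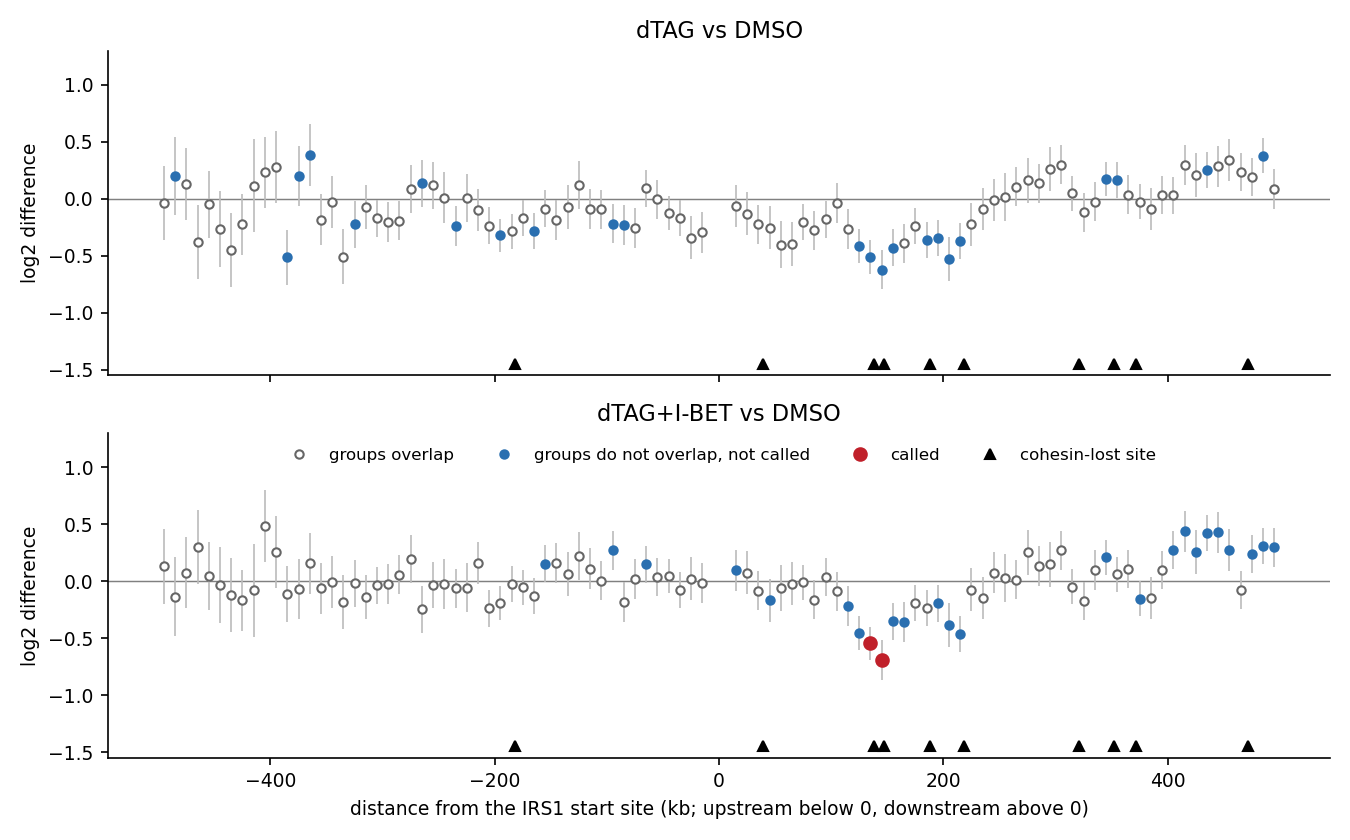
Log2 difference in signal per kb against DMSO (y axis, with standard errors from limma) in 10-kb bins by distance from the IRS1 start site (x axis, kb), for dTAG above and dTAG+I-BET below. Filled blue points are bins whose groups do not overlap, and red points are the 2 called bins, at -0.69 and -0.54, next to the pair of triangles near 140 kb.

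Whole distance bands, which sum the signal of these same bins, followed the same order and add no separate support. From 100 to 250 kb downstream the libraries held 713, 673 and 645 per kb in DMSO, 590, 583 and 437 in dTAG, and 530, 543 and 554 in dTAG+I-BET. All treated libraries were below all DMSO libraries. From 250 to 500 kb downstream they held 345, 363 and 340 per kb in DMSO, 418, 415 and 319 in dTAG, and 376, 381 and 388 in dTAG+I-BET. There dTAG+I-BET was above DMSO in all libraries, while dTAG replicate 3 was below it. For bands, the share over all promoters with groups apart was not counted. On the deposited scale none of the 8 IRS1 bands was called in either comparison (5.62% and 10% of 160 bands were). The estimates were -0.35 and -0.32 for the nearer band (adjusted p = 0.135 and 0.128 with limma) and 0.13 in both comparisons for the farther one (adjusted p = 0.577 and 0.61). Without dTAG replicate 3, both bands were called in dTAG against DMSO, the nearer at -0.21 (adjusted p = 0.0319) and the farther at 0.26 (adjusted p = 0.0101). After rescaling to equal totals the nearer band was called in both comparisons, at -0.29 (adjusted p = 0.0064) and -0.33 (adjusted p = 0.00198), and the farther band in dTAG alone, at 0.18 (adjusted p = 0.045), against 0.12 (adjusted p = 0.158) in dTAG+I-BET.

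The 2 bands were also set against each other within each library. The log2 level from 100 to 250 kb minus that from 250 to 500 kb downstream was 1.05, 0.89 and 0.93 in DMSO. It was 0.50, 0.49 and 0.45 in dTAG, and 0.49, 0.51 and 0.51 in dTAG+I-BET. The DMSO libraries lay apart from the rest, and dTAG replicate 3 lay with the other dTAG libraries. Such a separation was not particular to IRS1. Downstream of DCBLD2, KRR1 and PCDH7 all DMSO libraries were also above all treated ones, and downstream of HMGA2 they were below. The group means differed from DMSO by -0.48 in dTAG and -0.45 in dTAG+I-BET, and from each other by 0.03. For both treatments IRS1 had the lowest of the 20 promoters' downstream values, whose medians without IRS1 were 0.03 and 0.11 and which reached 0.59 and 0.83. On the upstream side the same quantity differed at IRS1 by -0.09 and -0.01, while the lowest upstream values, both at MTAP, were -0.95 and -0.85. This pair of bands was chosen after its values were seen, so that no test is given.

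**Figure D5:**
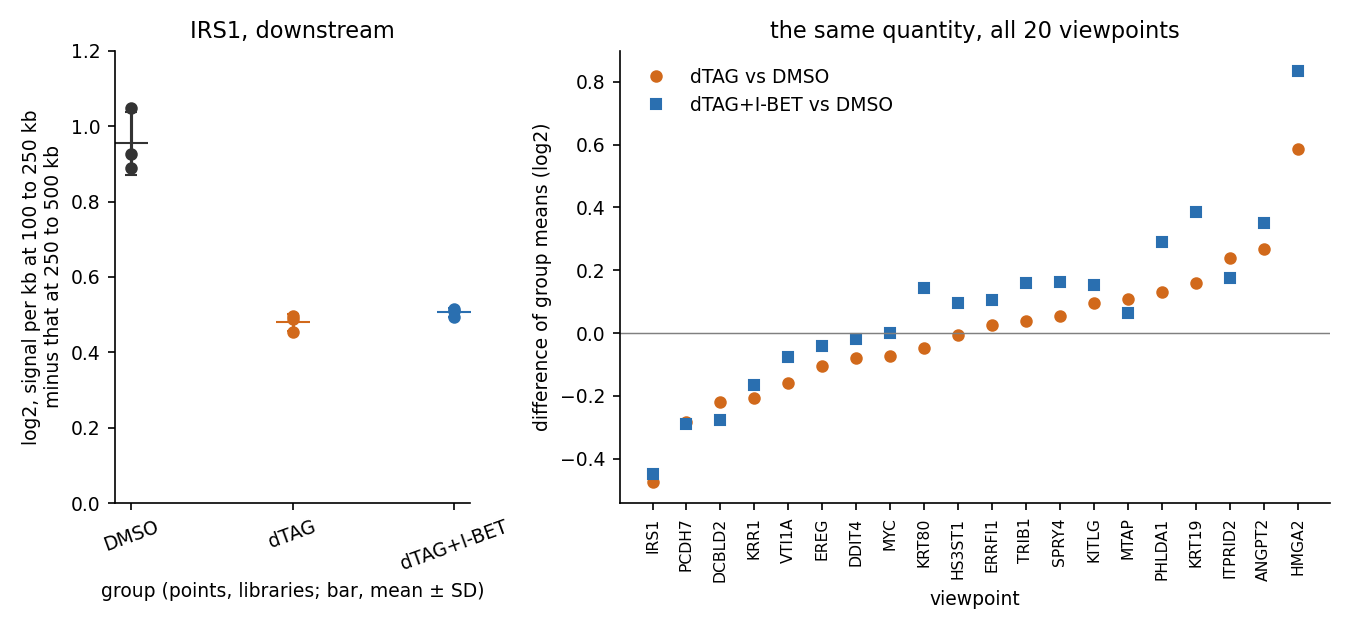
Left, log2 signal per kb at 100 to 250 kb minus that at 250 to 500 kb downstream of IRS1 (y axis) by group, with points for libraries and the mean ± SD of 3. Right, difference of the group means from DMSO (y axis, log2) for each of the 20 promoters (x axis), in which IRS1 is lowest at -0.48 in dTAG and -0.45 in dTAG+I-BET.

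Closer to the promoter and between the 2 sides, no difference from DMSO passed the test. The IRS1 gene body, from 10 kb downstream of the start site to the gene end, held 1266, 1283 and 1201 per kb in DMSO, 1357, 1269 and 767 in dTAG, and 1248, 1232 and 1280 in dTAG+I-BET. Its estimates were -0.19 (adjusted p = 0.585 with limma) and 0.00 (adjusted p = 0.979), where 10% and 50% of 10 gene bodies were called. Without dTAG replicate 3 the dTAG estimate became 0.07. The log2 ratio of the downstream over the upstream side was 1.02 ± 0.08 in DMSO, 1.06 ± 0.12 in dTAG and 0.96 ± 0.02 in dTAG+I-BET (SD, n = 3). Neither difference from DMSO, 0.04 (0.11 without dTAG replicate 3) and -0.06, passed the test (adjusted p = 0.621 and 0.43 with limma), while 50% of 20 promoters were called in each comparison.

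Contacts with the promoters of neighboring genes were not called either. The RHBDD1 promoter, 35.8 kb upstream by its GENCODE start, held 684 to 813 per kb in DMSO, 575 to 721 in dTAG and 637 to 706 in dTAG+I-BET. RefSeq places the first RHBDD1 start much nearer, 339 bp from that of IRS1, where contacts cannot be told from the captured fragment itself. The shared promoter window of COL4A4 and COL4A3, 364.6 and 364.8 kb upstream, held 67.1 to 90.4 per kb in DMSO, 87.0 to 107 in dTAG and 56.1 to 103 in dTAG+I-BET, from 23 to 58 interactions per library. The estimates against DMSO were -0.16 and -0.12 for RHBDD1 and 0.31 and 0.04 for the collagen genes, with adjusted p from 0.723 to 0.974 in limma, and RHBDD1 in dTAG was -0.068 without dTAG replicate 3. Over all promoters, 1.45% and 0.725% of 138 such windows were called.

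Adding I-BET to the dTAG ligand gave no called difference from dTAG alone at IRS1. With limma, 0 of 98 bins and 0 of 9 windows were called, as over all promoters (0 of 1960 bins and 0 of 113 windows), while 2 of the 98 bins (6.22% of all bins) and 0 of the 9 windows (6.19% of all windows) had an unadjusted p under 0.05. edgeR called 0 of the bins. Of the 98 bins, 68 were higher in dTAG+I-BET than in dTAG, with a median of 0.09, the same as over all promoters. After rescaling to equal totals, 56 were higher, with a median of 0.03 against -0.0015 over all promoters. Without dTAG replicate 3, 42 were higher, with a median of -0.04. The 5 bins with the lowest p-values had adjusted p-values of 0.713. They lay at 90 to 100, 460 to 470, 140 to 150 and 20 to 30 kb upstream (0.49, 0.68, 0.35 and 0.36) and at 60 to 70 kb downstream, at the 3′ end of the IRS1 gene (0.38). Without dTAG replicate 3, the values at 20 to 30 kb upstream and 60 to 70 kb downstream were 0.10 and 0.11.

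The summed cohesin-lost windows of IRS1 were also set against those of the other 18 promoters with such sites. IRS1 minus the mean of the others was -0.35, -0.30 and -0.20 on the log2 scale in DMSO, -0.37, -0.42 and -0.40 in dTAG, and -0.45, -0.46 and -0.46 in dTAG+I-BET. The group means differed from DMSO by -0.11 and -0.17. Each comparison gave p = 0.1 in a two-sided exact permutation test, the smallest that 3 against 3 libraries allow. Over the 9 libraries, the promoters whose summed windows varied most like those of IRS1 were HS3ST1 (Pearson r = 0.97), MYC (0.95) and KRR1 (0.94). The points share the libraries and their depth, and the values are a description.

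Of the 6 other captured genes of growth factor and receptor signaling, none showed a called decrease in a single window. These were the ligand genes EREG, KITLG and ANGPT2 and the signaling regulators ERRFI1, SPRY4 and TRIB1, with 23 windows in all. Of these windows, 0 were called lower in either comparison with DMSO, against 8.85% and 10.6% of all windows, and 2 were called higher in dTAG+I-BET, both at EREG, against 3.54% of all windows. Of the 588 bins of these genes, 1 was called lower and 1 higher in dTAG, against 0.357% and 1.12% of all bins. In dTAG+I-BET, 2 were called lower and 12 higher, against 1.43% and 3.47% of all bins. The ratio of cohesin-lost windows over other sequence was called lower in dTAG+I-BET than in DMSO for 3 of the 6 genes (57.9% of all promoters with such sites). It was called higher for 1 (5.26%). ERRFI1 (-0.23, adjusted p = 0.0102), SPRY4 (-0.42, adjusted p = 0.0314) and TRIB1 (-0.27, adjusted p = 0.00281) were lower by limma, as IRS1 was, and EREG (0.32, adjusted p = 0.000845) was higher. In dTAG against DMSO, EREG alone was called (15.8% of promoters were called lower and 5.26% higher), at 0.22 (adjusted p = 0.0122 with limma). The difference between IRS1 and any single one of these genes was not tested.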

How the data were processed

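Capture-C of 20 promoters in 9 libraries (3 groups of 3) was analyzed. Per the study's methods, chromatin was digested with DpnII, promoter fragments were enriched with biotinylated oligonucleotides, and interactions were counted with CapCruncher on hg38. The submitters' processing notes name bcl2fastq 2.17. The deposited signal is the count of interactions per DpnII fragment, scaled by the authors to a nearly constant total on the promoter's own chromosome. All values were whole multiples of the smallest value in their column (100%, tolerance 0.01), which gave back the interactions. Replicate numbers in the deposited column names carry the unexplained letters TR, so that n = 3 rests on the study's statement of biological replicates. If it does not hold, p-values measure technical spread.

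Fragments were assigned to regions by their midpoint, on the side given by the strand of the gene in GENCODE 44. Sites of the study's SMC1A list (881 lost and 20 gained, none of the latter within 1000 kb of IRS1) gave windows of 5 kb on each side, 10 to 500 kb from the start site, joined where they overlapped. Log2 of signal per kb plus 1 was fitted with limma 3.58.1 in R 4.3.3 on all 9 libraries and all promoters, with Benjamini-Hochberg adjustment within each kind of region and a threshold of 0.05. Bins needed at least 2 per kb, which removed none. edgeR 4.0.16 (quasi-likelihood) was run on the recovered interactions. Simulated bins (1960, 3 against 3 libraries) gave limma 4 and edgeR 7 calls among 1760 unchanged bins, and 94 of 100 changed by log2 1 were found by each, against 37 and 42 of 100 changed by log2 0.5. Sums, ratios, gene bodies and sides, with 1 value per promoter and library, were also tested with limma. A two-sided exact permutation test, which cannot go below p = 0.1 here, was the only test for IRS1 minus other promoters. For the ratio of cohesin-lost windows over other sequence in dTAG+I-BET against DMSO, that exact test gave p = 0.1. Other steps ran in scipy 1.17.1, numpy 2.4.6, pandas 2.3.3 and, for plots, matplotlib 3.10.9 under Python 3.11.15.

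The named items are IRS1, all cohesin-lost windows and protein-coding neighbors within 500 kb, the called bins of each comparison or, where fewer than 3 were called, also the 5 bins with the lowest p, the 3 bins per side highest over other promoters in DMSO, and the 3 promoters most like IRS1. Members, lists and tests were chosen with earlier results of these data known. Alternatives left out each library, added a block on the replicate number, used the 2 compared groups alone, rescaled libraries, changed pseudocounts, filters, bins and windows, and used edgeR.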

Additional observations from a re-analysis of the deposited data

How the results depend on the processing

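For IRS1 bins in dTAG against DMSO, 0 calls became 1 with the replicate block, edgeR or bins of 25 kb and 2 after rescaling to equal totals from 10 to 1000 kb, and ranged from 0 to 1 with single libraries left out. In dTAG+I-BET against DMSO, 2 calls became 4 with only the 2 groups compared, 4 after rescaling, 1 with bins of 5 or 25 kb, and 0 without any 1 of the DMSO or dTAG+I-BET libraries. Over all promoters, 29 called bins in dTAG against DMSO (7 lower) became 53 with edgeR, 70 with the replicate block, 84 after rescaling (39 lower), and 18 (without DMSO replicate 1) to 83 (without dTAG replicate 3) with single libraries left out. In dTAG+I-BET, 96 became 167 with only 2 groups and 30 to 88 with single libraries left out.

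Called IRS1 windows in dTAG against DMSO went from 1 to 0 with only 2 groups or windows of 2.5 kb and to 2 after rescaling, and ranged from 0 to 1 with single libraries left out. In dTAG+I-BET they went from 1 to 3 with only 2 groups or after rescaling, and again ranged from 0 to 1. Summed windows passed the test after rescaling (-0.21 and -0.27) and, for dTAG+I-BET, with only 2 groups (-0.26). Their ratio to other sequence in dTAG passed with sites up to 1000 kb away (-0.16) and ranged from -0.19 to -0.10 with single libraries left out. In dTAG+I-BET that ratio passed under every alternative run. Called bands in dTAG became 2 after rescaling and ranged from 0 to 2 without single libraries, and in dTAG+I-BET became 1 with only 2 groups or after rescaling. Uncalled values moved by more than the replicate spread for the gene body (-0.34 to 0.070 in dTAG against DMSO and -0.066 to 0.35 in dTAG+I-BET against dTAG without single libraries) and for the ratio of sides from 10 to 250 kb (-0.075 and -0.16). The difference from other promoters moved to -0.10 and -0.038 (dTAG+I-BET against DMSO and dTAG) with windows of 10 kb, and to -0.037 and -0.10 (dTAG and dTAG+I-BET against DMSO) with sites up to 1000 kb away. No called value changed sign under the alternatives run, and the causes of these changes were not tested.

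Deviations of libraries with the same replicate number correlated at 0.03 to 0.23 between dTAG and DMSO, against -0.23 to 0.16 for other numbers. Between dTAG+I-BET and DMSO it was -0.03 to 0.02, against -0.04 to 0.03. The numbers were not taken to pair the libraries, but these few overlapping values cannot decide whether dTAG and DMSO were paired. The replicate block raised IRS1 bin calls in dTAG from 0 to 1 and changed no other IRS1 count. Depth limits single bins and the collagen window, which held 23 to 58 interactions per library. PCR reads without molecular identifiers are not independent molecules.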
